A study of Mus musculus with 10 samples.

Results

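Transcripts of HGF, its receptor MET, the FGF and EGF receptors and the Sprouty family of feedback inhibitors were examined in activated muscle stem cells (MuSCs, also called satellite cells) with and without Trpm7, the gene of a Mg2+-permeable channel with a kinase domain. The 10 genes, out of 24608 gene symbols in the deposited table, were taken by name: Hgf, Met, Fgfr1, Fgfr4, Egfr, Fgfrl1, Spry1, Spry2, Spry4 and Spred1. Control mice were Trpm7+/+; Pax7CreERT2/+; Rosa26YFP and Trpm7 cKO mice were Trpm7flox/flox; Pax7CreERT2/+; Rosa26YFP, with 5 libraries of each genotype. All animals were adults on a C57BL6 background and carried the tamoxifen-inducible Cre and the YFP reporter, and both genotypes received tamoxifen, so the groups differ in the floxed alleles. Cre from the Pax7 locus acts in Pax7-positive cells only, and YFP marks the cells in which it acted. Muscle was injured with cardiotoxin (CTX), and 3 days later 3000 YFP-positive cells per library were sorted into lysis buffer for CEL-Seq2, which reads the 3′ end of each transcript and counts molecules by unique molecular identifiers (UMIs).

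HGF is deposited in the muscle matrix as an inactive precursor, is cleaved after injury, and activates the MET receptor on MuSCs, which then leave quiescence. FGFs act through FGFR1 and FGFR4 on the same cells and favour their proliferation, and EGFR binds EGF, amphiregulin and heparin-binding EGF. All of these receptors signal through RAS and the ERK kinases, and the ERK kinases induce Sprouty and related genes, whose proteins dampen the same receptors. Spry1 is known in MuSCs for its part in the return to quiescence. The study also gave mice the HGF-activating protease HGFA, and the comparison below asks how the transcripts of the receptor system itself stood in Trpm7 cKO cells.

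After TMM normalization, which scales libraries to their bulk of genes, Met fell in Trpm7 cKO MuSCs while Fgfr1, Fgfr4 and Egfr rose, and in counts per sorted cell the rises were lost (log2 fold changes of 0.07, -0.31 and -0.38). Within a library, Met gave the largest mean share of the receptor counts in control and the smallest in Trpm7 cKO, where Fgfr1 gave the largest. Among the feedback inhibitors Spry1 and Spred1 passed the test as higher on the same scale, with calls that rested on a few libraries, and Spry2 and Spry4 did not pass it there. Of the 10 genes, 8 had enough counts to be tested. Of these 8, 5 were higher (62.5%, against 24.6% of all 7753 tested genes) and 1 was lower (12.5%, against 24.1%), on the TMM scale, by the quasi-likelihood test of edgeR, with p-values adjusted after Benjamini and Hochberg over all tested genes and a threshold of 0.05. Counts per sorted cell leave the library totals unadjusted, so sequencing depth cannot be told apart from RNA per cell there. On that scale, the median of all tested genes shifted by -1.15 in log2 units. Of all 7753 tested genes, 5162 were lower and 380 higher on that scale. Of the 8 genes, 3 were lower (Met, Spry2 and Spry4) and 0 higher. There, 4 of the 5 genes that were higher on the TMM scale, all but Fgfr1, had values below 0.

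**Figure D1:**
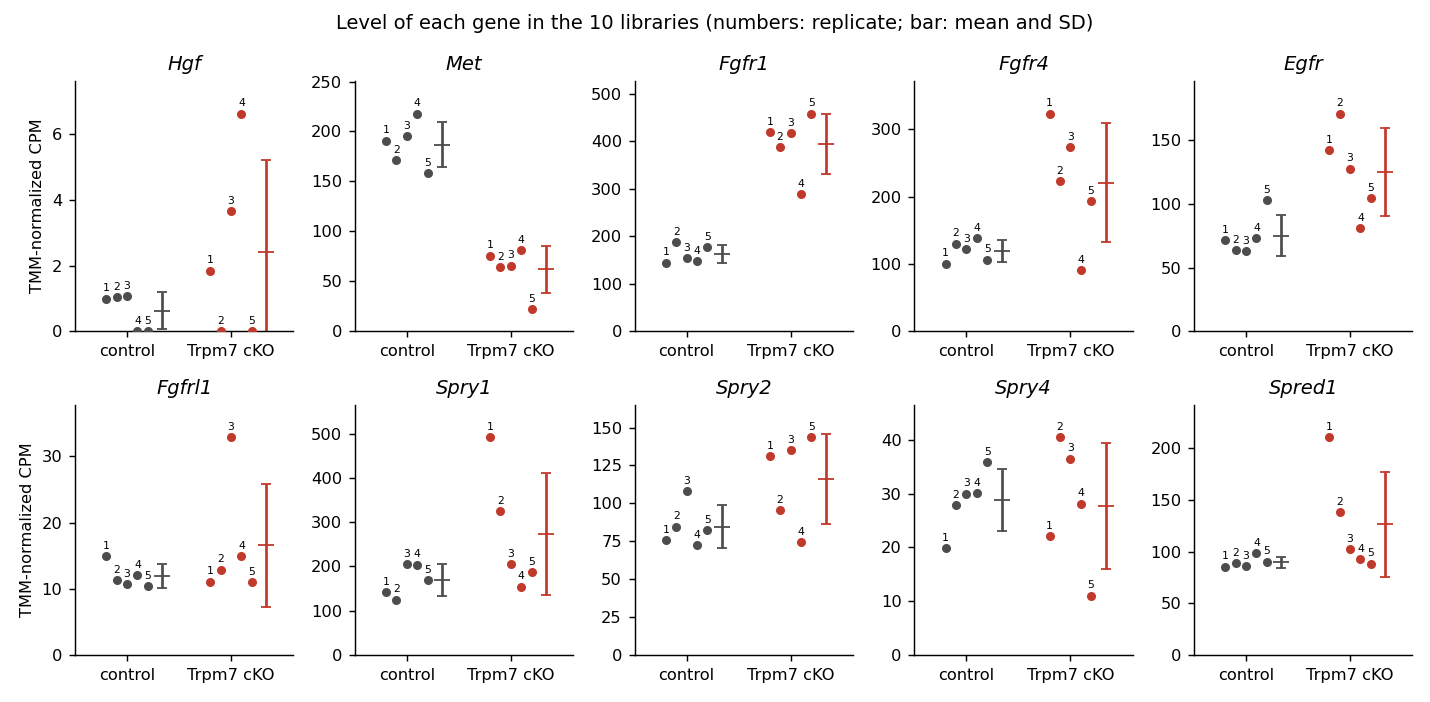
TMM-normalized counts per 1e6 counts (CPM) of the 10 genes in each library, with the replicate number above each point and the mean and SD beside the points (the SD of Hgf is cut at 0). The groups are apart for Met, lower in Trpm7 cKO, and for Fgfr1, higher in Trpm7 cKO on this scale but not in counts per sorted cell, and overlap for the other 8 genes.

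Control libraries held 914361 to 1097709 counts and Trpm7 cKO libraries 205986 to 581121, so every Trpm7 cKO library was shallower and depth cannot be told apart from genotype by the totals. Because the libraries are bulk samples, fewer cells that express a gene and less of its RNA per cell cannot be told apart. Trpm7 itself had 66 to 84 counts per control library and 10 to 55 per Trpm7 cKO library, or 76.9 ± 9.97 and 71.4 ± 22.01 counts per 1e6 counts after TMM normalization (CPM; SD, n = 5 each). The position of the floxed exons is not given in the sources used here, so these 3′-end counts were not taken as a check of the deletion. MuSC markers were present in all libraries: none of the 20 was at 0 in a group, and their summed level was 4815 to 5620 CPM in control and 4129 to 7297 CPM in Trpm7 cKO, with Trpm7 cKO replicate 4 lowest. Of the 18 markers tested, 10 were higher and 3 lower on the TMM scale, against 24.6% and 24.1% of all tested genes. Their median log2 fold change was 0.76. Among the 20 markers Dag1 was at 1044 ± 81.0 and 1212 ± 348 CPM and Peg3 at 597 ± 63.5 and 447 ± 80.1 CPM (SD, n = 5 each, control first). On the TMM scale, the defining marker Pax7 was higher (976 and 974 raw counts over the 2 groups) and Myod1, which marks activated cells, was lower, with log2 fold changes of 1.19 and -2.01 (edgeR, adjusted p = 2.4e-05 and 1.84e-08), and both are named here after their values were seen.

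The sequences before the start sites of Met, which fell, and of Egfr and Spry1, which rose on the TMM scale, are shown so that the regulatory regions of genes with opposite changes can be compared. They are the 250 bases before the RefSeq start in GRCm38.p6, 5′ to 3′ on the gene's strand, with capitals for matches, on either strand, to 4 motifs: an E-box bound by myogenic factors (CAGCTG), an AP-1 site (TGANTCA), an ETS site (CCGGAA) and a GC box (GGGCGG).
Met, chr6:17463707-17463956, plus strand: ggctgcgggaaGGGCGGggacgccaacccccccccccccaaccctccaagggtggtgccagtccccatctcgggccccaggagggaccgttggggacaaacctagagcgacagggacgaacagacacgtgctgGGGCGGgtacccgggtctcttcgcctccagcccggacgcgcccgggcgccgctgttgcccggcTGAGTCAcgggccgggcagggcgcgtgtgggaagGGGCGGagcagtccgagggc
Egfr, chr11:16751953-16752202, plus strand: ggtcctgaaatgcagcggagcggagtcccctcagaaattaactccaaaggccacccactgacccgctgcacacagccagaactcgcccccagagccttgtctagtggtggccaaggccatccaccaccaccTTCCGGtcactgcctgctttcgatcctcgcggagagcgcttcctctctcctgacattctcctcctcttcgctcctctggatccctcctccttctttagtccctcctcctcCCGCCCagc
Spry1, chr3:37639697-37639946, plus strand: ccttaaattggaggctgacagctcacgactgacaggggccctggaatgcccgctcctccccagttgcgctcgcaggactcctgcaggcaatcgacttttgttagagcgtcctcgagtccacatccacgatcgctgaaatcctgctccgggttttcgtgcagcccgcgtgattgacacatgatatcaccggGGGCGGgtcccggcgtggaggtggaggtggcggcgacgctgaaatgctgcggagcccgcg
Met had 1 AP-1 match, 54 bases before the RefSeq start, and 3 GC boxes. GENCODE places the start of Met upstream of the RefSeq start, within this window at position 17463800, and the AP-1 match and 2 of the 3 GC boxes lie between the 2 starts. Egfr had 1 ETS match and 1 GC box, and Spry1 had 1 GC box. Of the 32851 promoter windows of the same length in the RefSeq table, 13% held the E-box, 6.75% the AP-1 site, 12% the ETS site and 32.7% the GC box. All genes but Fgfr1 and Spry4 had a window. Of these 8, none held the E-box, 3 held an ETS match and only Met held the AP-1 site. All of the 8 but Hgf and Spry2 held a GC box. Hgf had 2 windows, and only the first was searched. A match is a description of the letters, and the 3′-end libraries did not measure binding or transcription at these sequences.

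Met encodes the only known receptor of HGF. Its gene lies at chr6:17463800-17573980 on the plus strand of GRCm38. Met had 191, 171, 195, 218 and 159 CPM in control replicates 1 to 5. In Trpm7 cKO replicates 1 to 5 it had 75.8, 64.4, 65.8, 81.2 and 22.1 CPM. Every Trpm7 cKO library was below every control library, and replicate 5, where the value came from 4 counts, was far below the other Trpm7 cKO libraries. The means were 187 ± 22.8 and 61.8 ± 23.3 CPM (SD, n = 5 each), a 2.82-fold lower level with a log2 fold change of -1.49 ± 0.19 (SE, adjusted p = 3.14e-06). Over the fits that leave out 1 library the log2 fold change ranged from -1.61 to -1.37, with no adjusted p above 2.42e-05. The study's own cutoff also asked for a log2 fold change beyond 1.5, and 12% of the tested genes passed it by edgeR, but none of the 8 did, although 7 had an unadjusted p below 0.05. Met was the nearest, and it passed narrowly by DESeq2, with -1.57, and by limma-voom, with -1.50. Over 11 other settings of the whole fit it passed in 6, and over the 10 fits that leave out 1 library in 4.

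Hgf, the ligand, was close to absent in these cells. It had 3 counts over the 5 control libraries and 6 over the 5 Trpm7 cKO libraries, 4 of them in Trpm7 cKO replicate 4. As a rate per 1e6 counts this is 0.595 (exact Poisson 95% interval 0.123 to 1.74) and 2.80 (1.03 to 6.10), and an exact permutation test of the library values, two-sided, gave p = 0.27. A difference in Hgf was therefore not detectable at this depth. The intervals cover counting error only.

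Fgfr1, which encodes the FGF receptor needed for FGF-driven MuSC proliferation, lies at chr8:25513654-25575718 on the plus strand. Fgfr1 had 144, 187, 154, 148 and 177 CPM in control replicates 1 to 5. The Trpm7 cKO replicates 1 to 5 had 419, 388, 416.5, 288 and 458 CPM. All 5 Trpm7 cKO libraries were above all control libraries. The level rose from 162 ± 18.9 to 394 ± 64.2 CPM (SD, n = 5 each), or 2.41-fold, with a log2 fold change of 1.27 ± 0.15 (SE, adjusted p = 1.15e-06). Leaving out any 1 library kept it between 1.21 and 1.35. Met and Fgfr1 were the 2 of 8 tested genes whose groups did not overlap (25%, against 34.5% of all tested genes). The raw counts of Fgfr1 summed to 770 over the control libraries and to 809 over the smaller Trpm7 cKO libraries. Of the distinct 31-base stretches in the last 500 transcript bases of Fgfr1, 2.77% also occur in transcripts of other genes, and the other 9 genes share none.

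Fgfr4, a receptor of MuSCs and myoblasts, lies at chr13:55152640-55168759 on the plus strand. Fgfr4 had 100.4, 130.1, 122, 138.5 and 106.5 CPM in control replicates 1 to 5. Among Trpm7 cKO replicates 1 to 5 it was at 323, 223, 274, 91.1 and 193 CPM. Trpm7 cKO replicates 1, 2, 3 and 5 were above all control libraries, and replicate 4 was below all of them. The means were 119.6 ± 15.9 and 221 ± 87.9 CPM (SD, n = 5 each). The log2 fold change was 0.88 ± 0.24 (SE, adjusted p = 0.00655), and 1.09 without replicate 4. In counts per sorted cell it was -0.31 (adjusted p = 0.453).

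Egfr lies at chr11:16752203-16918158 on the plus strand. Egfr had 71.6, 64.0, 63.3, 73.3 and 103 CPM in control replicates 1 to 5. The values in Trpm7 cKO replicates 1 to 5 were 142, 171, 128, 81.2 and 105 CPM. The groups overlapped, since control replicate 5 stood above the other control libraries and Trpm7 cKO replicate 4 was again the lowest of its group. The mean went from 75.0 ± 16.3 to 126 ± 34.5 CPM (SD, n = 5 each), with a log2 fold change of 0.76 ± 0.20 (SE, adjusted p = 0.00342) that became -0.38 (adjusted p = 0.356) in counts per sorted cell.

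Fgfrl1, a receptor of the FGF family that lacks the kinase domain, had too few counts for the test, with 9 to 15 per control library and 2 to 9 per Trpm7 cKO library. Its level was 11.9 ± 1.80 and 16.6 ± 9.26 CPM (SD, n = 5 each; exact permutation test, two-sided, p = 0.294). Pooled over libraries this was 11.3 (exact Poisson 95% interval 8.57 to 14.7) and 15.4 (10.6 to 21.7) per 1e6 counts, and the intervals overlap.

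The receptor mix does not depend on how libraries are scaled, because each receptor is set against the others within a library, and each UMI stands for 1 molecule whatever its length. Met made up 29.1% to 37.7% of the summed counts of Met, Fgfr1, Fgfr4 and Egfr in control libraries and 2.84% to 14.98% in Trpm7 cKO libraries, with means of 34.4% ± 4.05 and 8.15% ± 4.35 (SD, n = 5 each). Fgfr1 went the other way, from 25.6% to 33.8% in control libraries to 43.7% to 58.9% in Trpm7 cKO libraries, with means of 29.8% ± 3.32 and 49.7% ± 6.21. The shares of Fgfr4 (21.95% ± 2.12 and 26.5% ± 6.48) and Egfr (13.8% ± 3.01 and 15.6% ± 2.65) overlapped between the genotypes. These shares were computed after the values above had been seen and are given without a test.

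**Figure D2:**
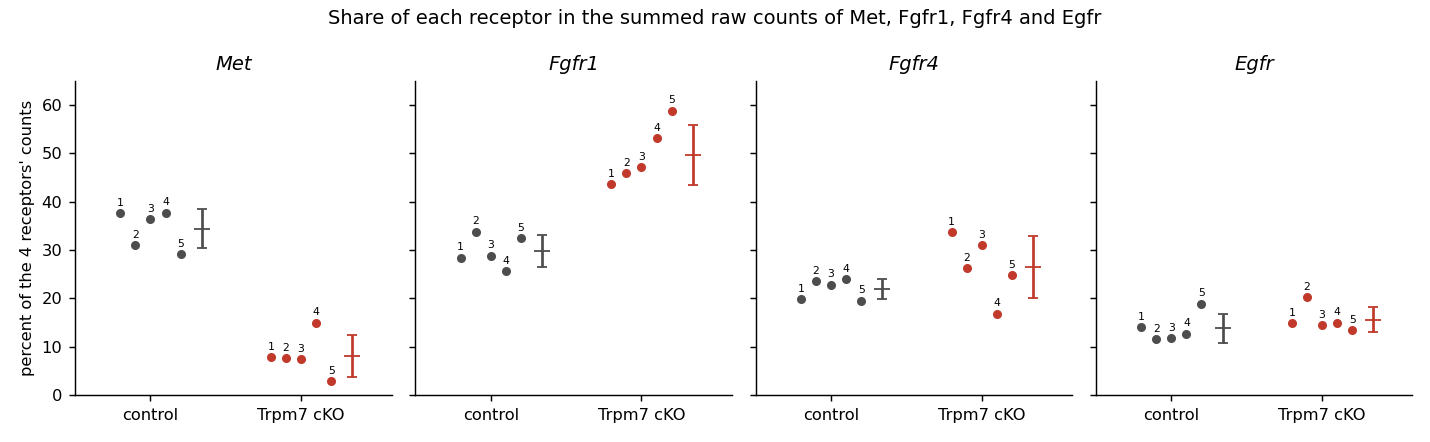
Share of each receptor in the summed raw counts of Met, Fgfr1, Fgfr4 and Egfr, in percent, by library (points, with replicate numbers) with mean and SD. The mean share of Met is 34.4% in control and 8.15% in Trpm7 cKO and that of Fgfr1 is 29.8% and 49.7%, both without overlap, while Fgfr4 and Egfr overlap.

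Spry1 restrains receptor signalling upstream of ERK and is high in quiescent MuSCs. Its gene lies at chr3:37639947-37644598 on the plus strand. Spry1 had 142, 125, 206, 204 and 169 CPM in control replicates 1 to 5. In Trpm7 cKO replicates 1 to 5 it had 491.5, 326, 205, 154 and 188 CPM. Trpm7 cKO replicates 1 and 2 were above all control libraries, and the other 3 lay within the control range. The means were 169 ± 36.2 and 273 ± 138 CPM (SD, n = 5 each). The log2 fold change of 0.72 ± 0.28 (SE) passed the threshold narrowly (adjusted p = 0.0464), and did not pass by DESeq2 (adjusted p = 0.0944) or limma-voom (adjusted p = 0.0793). Leaving out Trpm7 cKO replicate 1 brought it to 0.37 (adjusted p = 0.165), and the call was also lost without Trpm7 cKO replicate 2 or without control replicate 1, 2, 4 or 5, with adjusted p-values between 0.052 and 0.108.

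Spred1, a membrane-bound relative of the Sprouty genes that brings neurofibromin to RAS, lies at chr2:117121374-117182279 on the plus strand. Spred1 had 85.5, 88.8, 85.8, 98.4 and 90.3 CPM in control replicates 1 to 5. The Trpm7 cKO replicates 1 to 5 had 211, 138, 102, 92.8 and 88.3 CPM. The control libraries lay close together, and Trpm7 cKO replicates 1, 2 and 3 were above them. The means were 89.8 ± 5.22 and 126 ± 51.0 CPM (SD, n = 5 each). The log2 fold change was 0.54 ± 0.20 (SE, adjusted p = 0.0296), and did not pass by DESeq2 (adjusted p = 0.137) or without a filter on low counts (0.34, adjusted p = 0.169). It was 0.24 without Trpm7 cKO replicate 1 (adjusted p = 0.251), and the call was also lost without Trpm7 cKO replicate 2 or control replicate 1 or 3, with adjusted p-values of 0.068, 0.0632 and 0.067.

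Spry2, a Sprouty gene that acts on EGFR and FGF receptor signalling, lies at chr14:105891947-105896819 on the minus strand. It had 75.6, 84.7, 108, 72.3 and 82.2 CPM in control replicates 1 to 5. Among Trpm7 cKO replicates 1 to 5 it was at 131, 95.7, 135, 74.6 and 143.5 CPM. Trpm7 cKO replicates 1, 3 and 5 were above all control libraries. The means were 84.6 ± 14.2 and 116 ± 29.5 CPM (SD, n = 5 each). The log2 fold change of 0.40 ± 0.19 (SE) did not pass the threshold (adjusted p = 0.0803), but it did without Trpm7 cKO replicate 4 (0.53, adjusted p = 0.0159) or control replicate 3 (0.50, adjusted p = 0.0438). It also passed with total counts alone (0.49, adjusted p = 0.0317), with a minimum count of 20 (0.47, adjusted p = 0.0428) and with counts thinned to the smallest total (0.94, adjusted p = 0.00504).

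Spry4, also induced by FGF signalling, was low, with 20 to 31 counts per control library and 2 to 22 per Trpm7 cKO library. Control replicates 1 to 5 had 19.9, 27.9, 30.03, 30.1 and 35.9 CPM of Spry4 and Trpm7 cKO replicates 1 to 5 had 22.2, 40.5, 36.5, 28.2 and 11.04 CPM. Trpm7 cKO replicates 2 and 3 were above all control libraries and replicate 5 was below them. The means were 28.8 ± 5.78 and 27.7 ± 11.7 CPM (SD, n = 5 each), with a log2 fold change of 0.02 ± 0.26 (SE, adjusted p = 0.949). The sign for Spry4 changed with the scaling, and a p-value above the threshold does not show an equal level.

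Within the summed counts of Spry1, Spry2 and Spry4, Spry1 made up 59.5% ± 4.95 in control and 63.2% ± 9.76 in Trpm7 cKO libraries (SD, n = 5 each). Spry2 made up 30.2% ± 4.47 and 29.6% ± 9.45, and Spry4 10.2% ± 1.83 and 7.22% ± 3.64. All of these shares overlapped between the genotypes, unlike those of Met and Fgfr1 among the receptors.

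Trpm7 cKO replicate 4 had the lowest Fgfr1, Fgfr4, Egfr, Spry1 and Spry2 and the highest Met of its group, and the lowest summed MuSC markers (4129 CPM). Its leukocyte markers summed to 6518 CPM, the highest of all libraries. Of 25 leukocyte markers 17 were tested and all 17 were higher in Trpm7 cKO, with sums of 391 to 660 CPM in control and 1478 to 6518 CPM in Trpm7 cKO. Beside this list and those below, 24.6% of all tested genes were higher and 24.1% lower on the TMM scale. Some of the 17, such as Mrc1 (4 to 8 counts per control library) and Adgre1 (4 to 5), passed the filter through the Trpm7 cKO libraries. Lyz2 reached 1158 ± 500 CPM and Ctss 821 ± 413 CPM (SD, n = 5). The B, T and NK cell markers Cd79a, Cd3e and Nkg7 were at 0 in all control libraries, which allows up to 3 counts of each over the group. Endothelial markers, led by Cdh5 and Pecam1, summed to 6.44 to 82.2 CPM and 151 to 806 CPM. Of 12 listed, 3 were tested and called higher. These 3, Pecam1, Cdh5 and Flt1, had 0 to 15, 0 to 8 and 0 to 13 counts per control library. They passed the filter mainly through the Trpm7 cKO libraries, so the filter largely set the direction of these calls. Pericyte and smooth muscle markers, 3 of 3 tested higher and led by Acta2 and Tagln, summed to 423 to 679 CPM and 1269 to 1671 CPM. Tagln, with 8 to 13 counts per control library, also passed the filter mainly through the Trpm7 cKO libraries. Markers of these lineages were thus higher in the same 5 libraries in which Met was lower. Fibroadipogenic progenitor markers, 5 of 7 tested higher and 1 lower, had sums that overlapped, at 2820 to 4721 CPM and 3361 to 6264 CPM. Most of the sum came from Col1a2, which was lower (1767 and 1092 CPM), and Col3a1, which did not pass (1179 and 1441 CPM), whereas Dpt (10.3 and 170 CPM) and Col1a1 (161 and 747 CPM) were higher without overlap, as were the values of Pdgfra and Smoc2, which had too few counts to test. The marker Pi16 was at 0 in all control libraries. Of the myofiber markers, the 3 with enough counts (Acta1, Mylpf and Tnnt3) were lower, and the list summed to 208 to 427 CPM and 96.1 to 177 CPM. Ckm (2.14 and 14.1 CPM) and Myh4 (1.22 and 10.5 CPM), which had too few counts to test, were above all control libraries in 4 of 5 Trpm7 cKO libraries, and Myh1 was at 0 in all Trpm7 cKO libraries. Apart from the 2 most abundant of each list, these markers are named after their values were seen. In Trpm7 cKO replicate 2, Met was 64.4 and Fgfr1 388 CPM, close to their group means. The leukocyte and endothelial sums of that library were the lowest of its group, but above those of every control library. Its pericyte and smooth muscle sum (1671 CPM) was the highest of all libraries. Without replicates 4 and 5, which had the highest endothelial sums, the log2 fold changes were -1.46 for Met, 1.30 for Fgfr1, 1.16 for Fgfr4, 0.96 for Egfr, 1.01 for Spry1, 0.47 for Spry2 and 0.76 for Spred1, all past the threshold. The Trpm7 cKO libraries kept in that fit, replicates 1, 2 and 3, still had leukocyte sums of 3745, 1478 and 3749 CPM, above every control library. The part of the other cell types in these results was not tested.

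**Figure D3:**
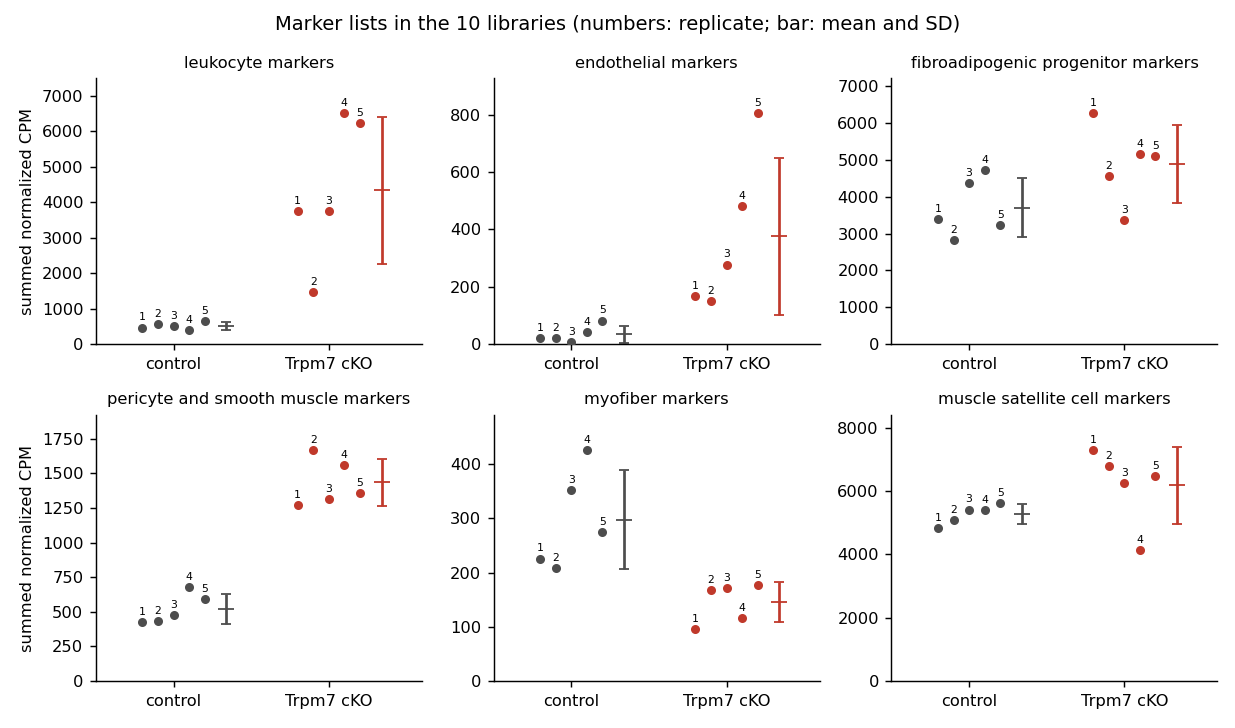
Summed normalized CPM of 6 marker lists in each library (points with replicate numbers, mean and SD beside them). Leukocyte, endothelial and pericyte sums are higher in every Trpm7 cKO library than in any control library, and MuSC marker sums are lowest in Trpm7 cKO replicate 4.

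Because total counts per 3000 sorted cells were lower in Trpm7 cKO, the scale decides how far the receptors and Sprouty genes rose. Lower values in counts per sorted cell cannot be told apart from lower sequencing depth. The summed MuSC markers are not a stable reference, since 10 of the 18 tested were higher and 3 lower on the TMM scale. Scaled on them, where the median gene shifted by -0.19, Met was at -1.68, Fgfr1 at 1.06, Fgfr4 at 0.61 and Egfr at 0.53 (log2 fold change, all past the threshold). Spry1 at 0.45 (adjusted p = 0.123) and Spred1 at 0.29 (adjusted p = 0.288) no longer passed. In counts per sorted cell Met was at -2.60 and Fgfr1 at 0.07 (adjusted p = 0.867), and Spry1, Spry2, Spry4 and Spred1 were at -0.36, -0.80, -1.10 and -0.57. Relative to the median gene on that scale, Met remained at -1.45, Fgfr1 at 1.22, Fgfr4 at 0.84, Egfr at 0.77 and Spry1 at 0.79.

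**Figure D4:**
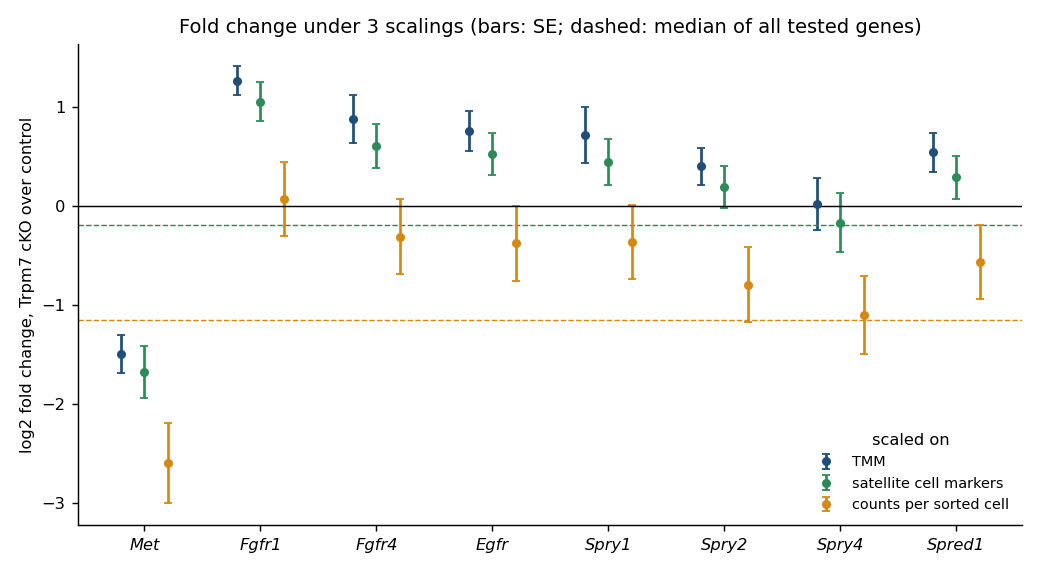
Log2 fold change, Trpm7 cKO over control, with SE, of the 8 tested genes under 3 scalings (TMM, MuSC markers and counts per sorted cell), with dashed lines at the median of all tested genes for the last 2. Met is below 0 on all 3, while Fgfr1 is above 0 on the first 2 and at 0.07 in counts per sorted cell.

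The other genes of the pathway were described by lists of 112 genes, of which 67 were tested and 40 called, 27 higher and 13 lower on the TMM scale, where 24.6% and 24.1% of all tested genes were called. In counts per sorted cell 6 were higher and 34 lower, against 380 higher and 5162 lower of all 7753 tested genes. On that scale Hbegf, Nrg1, Sdc4, Flrt2, Mapk3, Errfi1, Jun and Etv5 were below 0. Plau, Plaur and Gab1 stayed above 0 there without passing the threshold. Of 19 listed ligands 17 were in the table, most of them with few counts, and 4 could be tested. Of these, Fgf11, an intracellular FGF homologue, and Areg (amphiregulin) fell, with log2 fold changes of -1.66 and -1.53, and Hbegf (heparin-binding EGF) and Nrg1 (neuregulin) rose, with 0.87 and 1.03. The call of Nrg1 was lost without Trpm7 cKO replicate 4 (0.74, adjusted p = 0.096), without replicates 4 and 5 (0.57, adjusted p = 0.235), by DESeq2 (adjusted p = 0.062) and scaled on MuSC markers (adjusted p = 0.0713). Plau and Plat, the plasminogen activators that can cleave the HGF precursor, and Plaur, the receptor of the Plau protein, all rose, with log2 fold changes of 1.64, 2.15 and 1.80. Only these 3 of the 9 listed genes of HGF activation and its inhibitors could be tested, and none of the 3 is an inhibitor. The list median of 1.80 therefore describes these 3 alone. The values of Plat overlapped between the genotypes. Plau went from 52.5 ± 15.5 to 171 ± 68.7 CPM and Plaur from 12.4 ± 3.30 to 45.0 ± 9.89 CPM (SD, n = 5 each), without overlap between the genotypes. Among the other receptors and the FGF co-receptors, 2 of 7 tested genes rose (Flrt2, 0.64, and Sdc4, 0.46) and 2 fell (Cd44, -0.55, a co-receptor of MET in one splice form, and Sdc1, -0.55), close to the shares of all tested genes (24.6% and 24.1%). The call of Flrt2 was lost when scaled on MuSC markers (0.41, adjusted p = 0.156) and without a filter on low counts (0.45, adjusted p = 0.0976). Sdc4, also on the MuSC marker list, lost its call without Trpm7 cKO replicate 5 (0.31, adjusted p = 0.0628) or control replicate 3 (adjusted p = 0.0601), scaled on MuSC markers (adjusted p = 0.329) and without a filter (0.24, adjusted p = 0.267). Sdc1 lost its call without control replicate 1, 2 or 4 or Trpm7 cKO replicate 1, 3 or 5 (adjusted p up to 0.0951), and by limma-voom, total counts alone or a minimum count of 20 (adjusted p up to 0.104).

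Of 21 tested genes of the adaptors and the RAS-ERK cascade 6 rose and 5 fell on the TMM scale. These shares were close to the 24.6% and 24.1% of all tested genes, and the median log2 fold change was 0.04. The GTPases Hras and Nras fell, from 184 ± 19.4 to 81.3 ± 12.2 CPM and from 407 ± 55.3 to 208 ± 58.6 CPM (SD, n = 5 each), with log2 fold changes of -1.14 and -0.96. Map2k1, the gene of MEK1, fell with -0.75, a call lost after thinning to the smallest total (-0.69, adjusted p = 0.0598). Ksr1, the gene of a scaffold of the ERK cascade, rose from 9.11 ± 2.57 to 68.8 ± 19.8 CPM, with a log2 fold change of 2.93. Gab1, the docking protein that MET uses, rose with 1.25, and Mapk3, the gene of ERK1, with 1.00. Of 14 other tested feedback inhibitors 1 rose and 3 fell, against 24.6% and 24.1% of all tested genes, with a median of 0.10. Errfi1, an inhibitor of EGFR, had 1.05, and Dusp5, a phosphatase of nuclear ERK, Grb10 and Spred2, the paralogue of Spred1, had -1.08, -0.90 and -0.75. The call of Spred2 was lost after thinning to the smallest total (-0.35, adjusted p = 0.268). Dusp6, the ERK phosphatase often read with Spry2 and Spry4 as a measure of FGF signalling, had 97.8 ± 14.2 and 137 ± 53.5 CPM and did not pass (log2 fold change 0.46, adjusted p = 0.0906). Its values were seen before it was named here.

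Of 18 tested genes induced by ERK, 13 rose and 1 fell on the TMM scale, against 24.6% and 24.1% of all tested genes. The median log2 fold change was 1.39. In counts per sorted cell, only 6 of the 67 tested genes of all pathway lists were higher and 34 were lower. There, Jun and Etv5 were below 0, and Maff, Ier3 and Junb kept their calls, as in all 11 other settings. Maff, Ier3 and Junb rose most, with 2.93, 2.55 and 2.51. Etv5 and Jun rose with 0.67 and 0.46, but these calls rested on single libraries. The call of Etv5 was lost without control replicate 1 or 3 or Trpm7 cKO replicate 1, 2 or 3 (adjusted p up to 0.147), and that of Jun without control replicate 2 or 3 or Trpm7 cKO replicate 1 or 5 (adjusted p up to 0.0848). Both were also lost by DESeq2 (adjusted p = 0.122 and 0.0647), scaled on MuSC markers (adjusted p = 0.212 and 0.359) and without a filter (adjusted p = 0.195 and 0.267). Hmga1 fell with -1.38. Many of these are immediate early genes, which a wide range of stimuli induce. Within hours of myofiber culture, the study reported impaired induction of Fos and c-Jun protein and no increase of phosphorylated ERK in Trpm7 cKO MuSCs. That is another measure, at an earlier time, than these RNA counts at 3 days after injury.

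**Figure D5:**
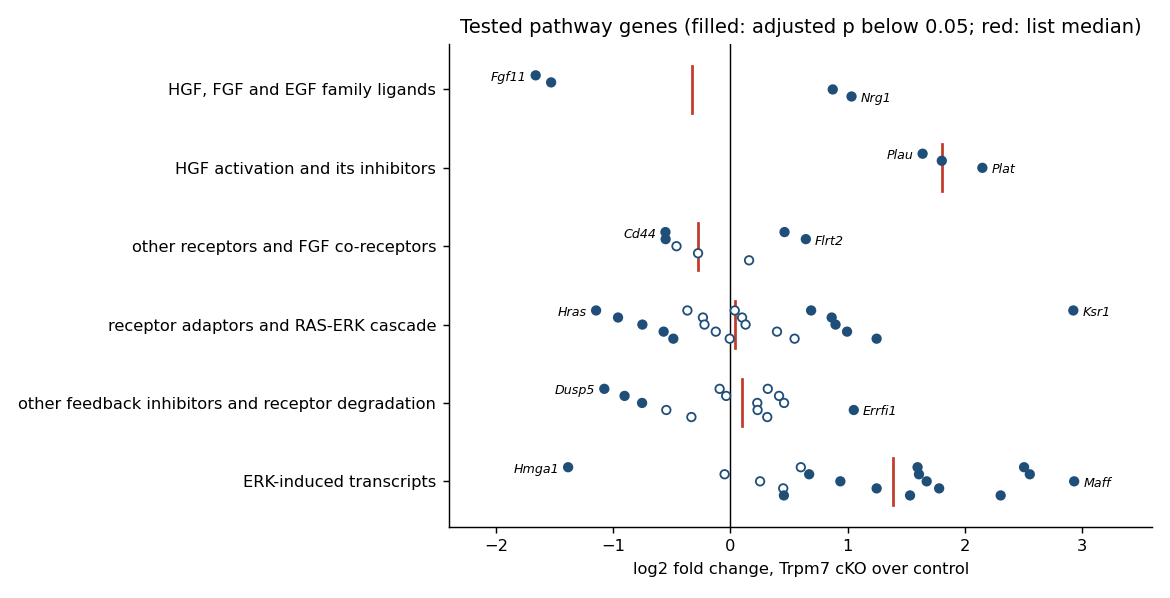
Log2 fold change on the TMM scale, Trpm7 cKO over control, of the 67 tested genes of 6 pathway lists. Filled points mark an adjusted p-value below 0.05, open points the rest and a red bar each list's median. The medians of HGF activation (1.80, from 3 of 9 listed genes) and of the ERK-induced genes (1.39) lie above 0. The RAS-ERK cascade spreads from -1.14 for Hras to 2.93 for Ksr1.

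Genes whose level followed each receptor or Sprouty gene most closely were found by Pearson's r of log2 CPM over the 10 libraries, among 7752 other tested genes. The libraries of a genotype share depth and genotype, so r describes these 10 libraries only. Met was closest to Ppp2r1b (0.99) and Trappc1 (0.99), and Fgfr1 to Gpx3 (0.996) and Chodl (0.996). Fgfr4 was closest to Creb3l1 (0.95) and Crtc3 (0.95), and Egfr to Six2 (0.96) and Hnrnph1 (0.95). Spry1 was closest to Megf10 (0.96) and Heyl (0.95), and Spred1 to Myf5 (0.97) and Heyl (0.94). Spry2 was closest to Xbp1 (0.95) and Lrpap1 (0.91), and Spry4 to Ccdc88a (0.92) and Hcfc2 (0.91). Chodl, Heyl and Myf5 are on the MuSC marker list.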

How the data were processed

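RNA-seq libraries of sorted MuSCs, 5 control and 5 Trpm7 cKO, were compared. The authors extracted UMIs with UMI-tools 1.1.4, trimmed reads with Trim Galore 0.6.10, aligned them to GRCm38 with HISAT2 2.2.1, assigned them to genes with featureCounts 2.0.6 and removed UMI duplicates (versions per the submitters' processing notes). The deposited values are whole-number counts per gene without normalization, in 24620 entries under 24608 symbols. For the 12 symbols on a further line, the entry with the larger total was used. The annotation release and strand setting are not given in the sources used here. For the 10 receptor, ligand and feedback genes, no other gene overlaps the last 500 transcript bases. The other genes named were not checked for this.

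Testing was done in R 4.3.3 with edgeR 4.0.16, by filterByExpr (minimum count 10, minimum total 15; 7753 genes kept), TMM factors, a robust quasi-likelihood fit with genotype as the only term, and Benjamini-Hochberg adjustment over all tested genes, with a threshold of 0.05. Normalized CPM are counts per 1e6 counts after TMM. Every adjusted p-value given is from this test unless another tool is named. Log2 CPM used a prior count of 2. The scripts were tested on simulated counts. Exact permutation tests used all 252 splits and cannot go below p = 0.00794. Control libraries held 914361 to 1097709 counts and Trpm7 cKO libraries 205986 to 581121, which limits precision for genes with few counts.

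Groups and replicate numbers came from the sample labels. The labels do not say that libraries came from separate animals, and the library names of Trpm7 cKO replicates 4 and 5 share a number of unstated meaning, so p-values measure the spread between these libraries. Within each genotype, no pair of libraries was alike within sampling error (chi-square per degree of freedom of at least 1.47). The correlations of deviations between libraries of the same number ran from -0.12 to 0.18, 1 of 5 above 0.1, so the numbers were not treated as pairs.

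The genes and lists were chosen with earlier results of these data known. Named genes are the 10 genes, up to 3 with the highest and 3 with the lowest log2 fold change among the called genes of each pathway list, the 2 of each marker list with the highest mean CPM over all libraries, the 2 tested genes of at least 10 mean CPM most correlated with each tested gene, and Trpm7. Alternatives were DESeq2 1.42.0, limma-voom (limma 3.58.1), RLE factors, total counts, scaling on MuSC markers, counts per sorted cell, other filters, thinning, the replicate number as a block, Trpm7 cKO replicates 4 and 5 summed, each library left out, the study's fold cutoff, and, chosen after seeing the data, leaving out Trpm7 cKO replicates 4 and 5. Promoter sequences came from RefSeq (GRCm38.p6), which matched 8 of the 10 genes, and gene positions from GENCODE for GRCm38.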

Additional observations from a re-analysis of the deposited data

Results flagged for a closer look

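Among 100 groups of 5 libraries checked (each reported gene or share in each genotype), 11 had 1 library whose gap to the nearest other library was more than 0.71 of the group's range. Chance flags about 1 in 20 such groups. Met was 22.1 CPM in Trpm7 cKO replicate 5, the smallest library, against 64.4 to 81.2 in the others. Egfr was 103.0 CPM in control replicate 5, against 63.3 to 73.3 in the others. Fgfrl1 was 32.9 CPM in Trpm7 cKO replicate 3, from 9 counts, against 11.04 to 14.9 in the others. The share of Egfr among the counts of the 4 receptors was 20.2% in Trpm7 cKO replicate 2, against 13.5% to 14.98% in the others.

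Among the pathway genes, Plau was 79.5 CPM, Maff 56.8 CPM and Jun 1023 CPM in control replicate 2, against 40.8 to 49.8, 28.8 to 34.7 and 1342 to 1417 in the other control libraries. In Trpm7 cKO replicate 4, Cd44 was 1962 CPM, against 1065 to 1281 in the others of that genotype, and Hmga1 was 48.1 CPM, against 16.6 to 21.9. Plaur was 62.1 CPM in Trpm7 cKO replicate 3, against 37.0 to 44.2, and Ier3 was 750.5 CPM in Trpm7 cKO replicate 5, against 375 to 468.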

How the results depend on the processing

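Of the 8 tested genes 6 passed the threshold, and the number was 4 to 7 over DESeq2 (4), limma-voom, RLE factors, total counts, scaling on MuSC markers (4), other filters, thinning, and Trpm7 cKO replicates 4 and 5 summed, 4 to 7 over the fits that leave out 1 library, and 7 without Trpm7 cKO replicates 4 and 5. With the replicate block it was 4, Spry1 and Spred1 losing the call. In counts per sorted cell it was 3, none higher and 3 lower, against 380 higher and 5162 lower of all 7753 tested genes. With the study's fold cutoff as well, the number was 0 on the TMM scale. By adjusted p-value alone, Met kept its direction and call in all of these fits. Among the pathway lists 40 genes passed, 39 with the replicate block, 26 after thinning to the smallest total, where fewer genes could be tested, and 15 with the fold cutoff as well. In counts per sorted cell the log2 fold change reversed for Fgfr4 (-0.31), Egfr (-0.38), Spry1 (-0.36), Spry2 (-0.80), Spry4 (-1.10), Spred1 (-0.57), Hbegf (-0.28), Nrg1 (-0.092), Sdc4 (-0.77), Flrt2 (-0.47), Mapk3 (-0.20), Errfi1 (-0.14), Jun (-0.76) and Etv5 (-0.44), since nothing there offsets the smaller totals of Trpm7 cKO libraries. Spry4 also reversed by DESeq2 (-0.058), scaled on MuSC markers (-0.17), without a filter (-0.17) and over the fits that leave out 1 library (-0.17 to 0.13), for which the cause was not tested. Depth limits Hgf, Fgfrl1 and most ligands, whose counts were too few for the test.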
